A study of Mus musculus with 6 samples.

Results

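The interferon-stimulated genes described here were chosen by name, as 34 genes that interferons are known to induce. Of these, 32 had a row of their symbol among the 19309 genes of the deposited table, and all 32 passed the filter on low counts. The GTPase genes Mx1 and Mx2 were not analysed here. RNA came from the cheek skin of 3 C57BL/6 mice, 6 to 8 weeks old, and the labels name no transgene or deletion. On the right cheek, shaved skin was treated with acetone and ether in equal volumes for 30 s, then water for 30 s (AEW, which models dry skin). The left cheek of the same mouse was wiped with distilled water for 60 s (vehicle). Wipes were given 2 times a day for 12 days, and tissue was taken on day 12, giving 3 AEW and 3 vehicle libraries, 1 per cheek. Side of the face and treatment cannot be told apart, because AEW was on the right in every mouse.

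Interferons are secreted proteins that warn cells of viral or bacterial infection. Type I interferons signal through the receptor chains Ifnar1 and Ifnar2 to the kinases Jak1 and Tyk2. Stat2 and Irf9 then take part in a complex that binds the interferon-stimulated response element (ISRE) near the start of target genes. Interferon gamma signals through Ifngr1 and Ifngr2, acts on genes with a gamma-activated site (GAS), and induces Irf1 and guanylate-binding proteins. The products degrade or mask viral RNA, block virus release, or feed back on the pathway, and in skin they can be made by keratinocytes, macrophages and other immune cells.

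The start regions below show sequence elements that the choice of members by name did not use and that part of the list carries. RefSeq windows (build GRCm38.p6) from 250 bases before to 50 bases after a start base were at hand for 26 of the 32 genes, taking the window listed first. The start base differed from the RefSeq gene start for Cmpk2, Gbp3, Ifit2, Ifit3, Ifit3b, Irf7, Isg20, Oas1a, Oas3, Oasl1, Oasl2 and Xaf1. Windows for Oas2, Usp18, Zbp1, Parp9, Rtp4 and Ifi27l2a were not used here. An ISRE core was searched as GAAANNGAAA or, on the other strand, TTTCNNTTTC, and a GAS core as TTCNNNGAA, which reads alike on both strands. The ISRE core was present in 13 of the 26 windows (50.0%) and in 483 of 15228 windows of all genes in the table (3.17%). The GAS core was present in 6 of the 26 (23.1%) and in 7.45% of all windows. Matches in Isg15, Oas1a, Oas1g, Gbp3 and Bst2 overlap each other, and the GAS core of Bst2 overlaps its ISRE core. A match of letters describes the window and is not evidence of binding.

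The 250 bases before the start are printed for Ifit1, an RNA-binding effector, Isg15, the ubiquitin-like modifier, Gbp2, a guanylate-binding protein, and Irf1, a transcription factor of the interferon gamma response. They lie at chr19:34640639-34640888 (plus strand), chr4:156200819-156201068 (minus strand), chr3:142620413-142620662 (plus strand) and chr11:53769764-53770013 (plus strand). Capitals mark the matches, which are ISRE cores in the first 3 genes and a GAS core in Irf1.
Ifit1: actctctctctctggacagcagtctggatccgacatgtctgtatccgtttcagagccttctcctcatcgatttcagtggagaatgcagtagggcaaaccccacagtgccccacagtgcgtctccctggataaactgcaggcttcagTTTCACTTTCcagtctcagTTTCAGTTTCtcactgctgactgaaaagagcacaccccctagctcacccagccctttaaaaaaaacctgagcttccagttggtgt
Isg15: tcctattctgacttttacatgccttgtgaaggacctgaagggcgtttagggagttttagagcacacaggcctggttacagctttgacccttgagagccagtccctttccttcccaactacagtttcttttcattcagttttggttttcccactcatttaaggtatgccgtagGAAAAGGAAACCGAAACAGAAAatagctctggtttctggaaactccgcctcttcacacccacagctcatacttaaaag
Gbp2: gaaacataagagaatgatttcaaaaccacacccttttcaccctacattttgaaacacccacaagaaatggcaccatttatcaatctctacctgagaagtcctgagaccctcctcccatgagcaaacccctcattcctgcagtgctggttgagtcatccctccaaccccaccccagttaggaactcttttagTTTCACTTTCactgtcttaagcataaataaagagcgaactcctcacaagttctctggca
Irf1: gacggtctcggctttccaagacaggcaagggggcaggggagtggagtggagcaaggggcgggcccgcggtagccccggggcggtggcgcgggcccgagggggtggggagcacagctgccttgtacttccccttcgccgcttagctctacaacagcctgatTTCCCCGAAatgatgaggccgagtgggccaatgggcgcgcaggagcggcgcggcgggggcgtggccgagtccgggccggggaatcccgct

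Sites of near-identical gene copies are set side by side, with the ISRE core in capitals, because the copies also share reads. The Ifit3 and Ifit3b sites lie at chr19:34583363-34583392 and chr19:34607759-34607788 (plus strand), and those of Oas1a and Oas1g at chr5:120907520-120907549 and chr5:120887606-120887635 (minus strand).
Ifit3: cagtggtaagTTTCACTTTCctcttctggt
Ifit3b: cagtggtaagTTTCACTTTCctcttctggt
Oas1a: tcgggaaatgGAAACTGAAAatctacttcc
Oas1g: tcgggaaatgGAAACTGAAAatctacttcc
The letters are the same within each pair. Of the 50-base stretches of the longest Ifit3b transcript, 44.5% also occur in Ifit3 transcripts, and 54.1% of those of Oas1g occur in Oas1a transcripts (GENCODE M21). Reads were 50 bases long, so the values of the members of each pair are uncertain, and the deposited counts may have divided shared reads between them.

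**Figure D1:**
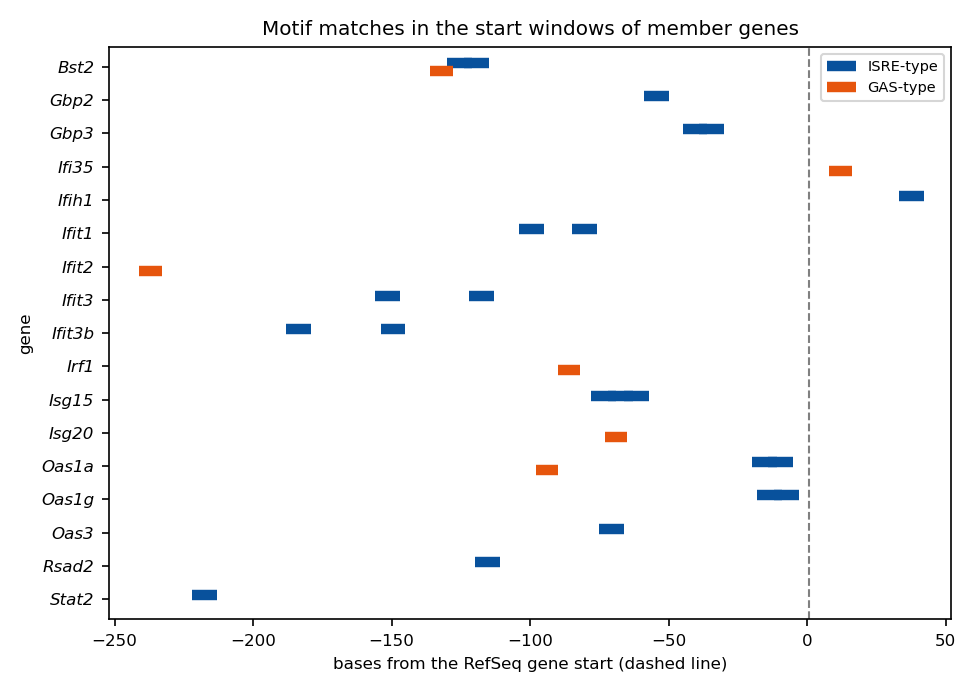
Positions of ISRE-type (blue) and GAS-type (orange) core matches in the start windows of the 17 member genes with any match. Positions are in bases from the start base of each window (dashed line), which the axis calls the RefSeq gene start. The 2 differ for Gbp3, Ifit2, Ifit3, Ifit3b, Isg20, Oas1a and Oas3. Most matches lie before the start base of the window, and those of Ifih1 and Ifi35 lie after it.

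Library totals ran from 18449145 to 19506462 estimated counts. Values below are library-size-scaled counts (CPM) after the trimmed mean of M-values (TMM) correction, and TPM where levels of different genes are compared. Markers of keratinocytes were present in every library (summed TPM of 11 genes from 10600 to 23200), and so were those of skeletal muscle (10 genes, 13100 to 44100), so the cheek samples held muscle as well as skin. Muscle markers were lower in AEW skin in all 3 mice, and 9 of 10 passed the test, against 6.8% of all tested genes called lower. With the mouse as a block 8 passed, against 3.89%. In bulk RNA, fewer cells of a type and less RNA per cell cannot be told apart. The vehicle library of mouse 1 stood apart for the interferon-stimulated genes. It had the highest CPM of the 6 libraries for 31 of the 32, against 16.2% of all 15109 tested genes, so results are given with and without it. The AEW library of mouse 1 had the lowest CPM of the 6 for 16 of the 32, against 3643 of the 15109.

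No interferon-stimulated gene passed the test between AEW and vehicle skin. Of 32 tested, 0 were called higher and 0 were called lower in the edgeR quasi-likelihood test (Benjamini-Hochberg adjusted p over all genes below 0.05), whereas 4.85% of all tested genes were called higher and 6.8% lower. At an unadjusted p under 0.05 there were 2, Gbp2 and Irf1, both lower, against 4654 of all 15109 tested genes in either direction. A block for the mouse again gave 0 and 0, against 1.99% and 3.89% of all genes, and DESeq2 called 1 member lower (Gbp2), against 10% of all genes. The median log2 fold change was -0.33 over the list and 0.014 over all tested genes, with negative values for 28 members and positive ones for 4. The median standard error of the log2 fold change was 0.384 over the members and 0.147 over all tested genes.

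The 3 mice did not share a direction. The AEW to vehicle ratio of CPM was under 1 for 31 of 32 genes in mouse 1 (median 0.346, range 0.229 to 1.01). In mouse 2 it was over 1 for 30 of 32 (median 1.41, range 0.773 to 3.31). In mouse 3 it was over 1 for 15 and under 1 for 17 (median 0.945, range 0.677 to 2.30). The medians over all tested genes were 0.995, 0.996 and 1.00, values near 1 that the TMM scaling sets. On the deposited TPM values the list's medians were 0.359, 1.36 and 1.01, against 1.09, 0.965 and 1.07 over all tested genes.

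Each gene fell into 1 of 4 patterns across the mice. In 14 genes the ratio was under 1 in mouse 1 and over 1 in mice 2 and 3, a pattern held by 12.6% of all tested genes. In 15 genes it was under 1 in mice 1 and 3 and over 1 in mouse 2, as in 6.08% of all genes. Gbp2 and Irf1 were under 1 in all 3 mice, and Trim25 was over 1 in all 3. These were also the genes whose groups did not overlap: 2 with AEW below vehicle and 1 above, against 19.5% and 17.4% of all tested genes. The vehicle library of mouse 1 exceeded the mean of the other vehicle libraries by a median of 2.21 times over the list (range 1.03 to 4.75). Among the AEW libraries, that of mouse 2 was the highest for 30 of 32 genes.

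**Figure D2:**
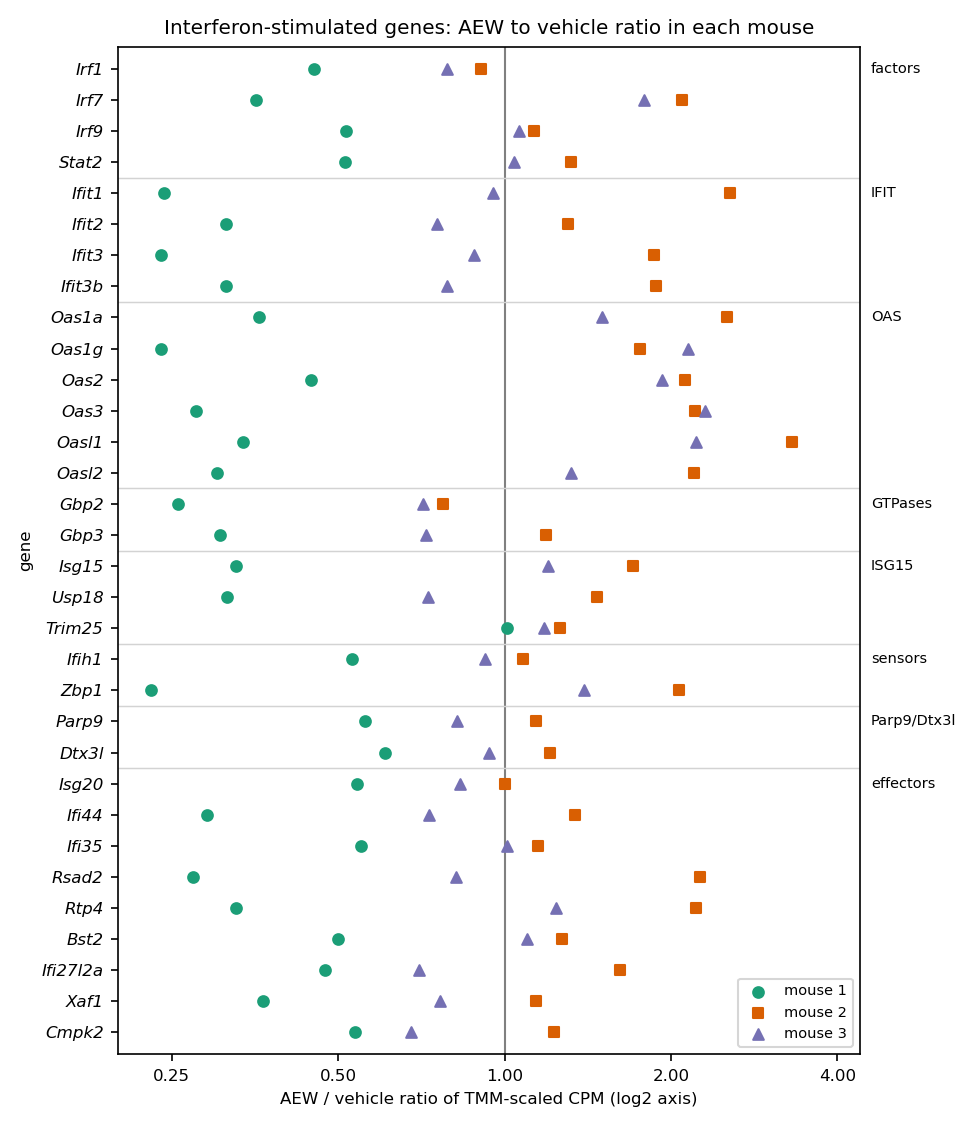
AEW to vehicle ratio of TMM-scaled CPM on a log2 axis for each of 32 interferon-stimulated genes, 1 point per mouse, grouped by role. Mouse 1 points lie left of 1 for all genes but Trim25 (1.01), mouse 2 points lie right of 1 for 30 genes, and mouse 3 points lie on both sides.

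The transcription factors of the pathway showed these patterns in small. Irf7 (gene 54123), which amplifies type I interferon production, stood at 82.6, 25.2 and 23.3 CPM in the vehicle skin of mice 1, 2 and 3 and at 29.3, 52.7 and 41.7 CPM in AEW skin. The AEW libraries lay between a high vehicle library and a pair of low ones, so the groups overlapped. Its ratios were 0.355 (95% exact interval from the counts, 0.322 to 0.391), 2.09 (1.87 to 2.34) and 1.79 (1.59 to 2.02) in the order of the mice. These intervals cover counting error only, and all 3 exclude 1. The log2 fold change was -0.084 ± 0.499 (SE, adjusted p = 0.927).

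Irf9 and Stat2, which take part in the complex that binds the ISRE, varied less. Irf9 had ratios of 0.517, 1.13 and 1.06 in mice 1 to 3, and Stat2 had ratios of 0.515, 1.32 and 1.04. Irf1 (gene 16362), whose promoter is printed above with a GAS core, stood at 53.0, 37.0 and 45.1 CPM in vehicle skin and at 24.0, 33.6 and 35.5 CPM in AEW skin. Every AEW library lay below every vehicle library. The means were 45.0 ± 7.99 and 31.0 ± 6.16 CPM (SD, n = 3 each), a log2 fold change of -0.54 with a 95% interval from -0.98 to -0.10, which did not pass the adjusted threshold (edgeR adjusted p = 0.102).

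The active enzymes of the oligoadenylate synthetase (OAS) family make a messenger that activates an RNA-degrading enzyme when they meet double-stranded RNA. Genes of this family lay on the same side of 1 within each mouse. All 6 had a ratio under 1 in mouse 1 (median 0.319) and over 1 in mouse 2 (median 2.21) and mouse 3 (median 2.04). Oasl1 (gene 231655), which in the mouse restrains translation of Irf7, stood at 10.1, 2.38 and 1.89 CPM in vehicle skin and 3.38, 7.88 and 4.19 CPM in AEW skin. Its ratio of 3.31 in mouse 2 (interval 2.35 to 4.75) was the highest of any member in any mouse. Over the 3 mice its log2 fold change was 0.11 ± 0.661 (SE, adjusted p = 0.929). Oas2 had ratios of 0.447, 2.12 and 1.93 and Oas3 of 0.277, 2.21 and 2.30. Oas1a and Oasl2 were nearer to 1 in mouse 3, with ratios of 1.5 and 1.32. Oas1g was the least abundant member, with 13 to 57 estimated counts in a library and a mean of 1.29 TPM.

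Genes of the IFIT family, whose products bind viral RNA that lacks the cap marks of the host, had ratios under 1 in mouse 1 (4 of 4, median 0.278) and over 1 in mouse 2 (4 of 4, median 1.87). In mouse 3 their median was 0.835, but the intervals of Ifit1 (0.781 to 1.16), Ifit3 (0.765 to 1.02) and Ifit3b (0.587 to 1.06) included 1, and that of Ifit2 (0.632 to 0.903) did not. Ifit1 (gene 15957), with its pair of ISRE cores, stood at 55.2, 12.2 and 11.1 CPM in vehicle skin and at 13.4, 31.1 and 10.6 CPM in AEW skin. The vehicle library of mouse 1 was 4.75 times the mean of the other vehicle libraries, the widest such gap of the list. Its log2 fold change of -0.51 had a 95% interval from -2.15 to 1.12 (adjusted p = 0.655). Ifit3 had ratios of 0.239, 1.86 and 0.882, and Ifit2 of 0.314, 1.3 and 0.756.

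**Figure D3:**
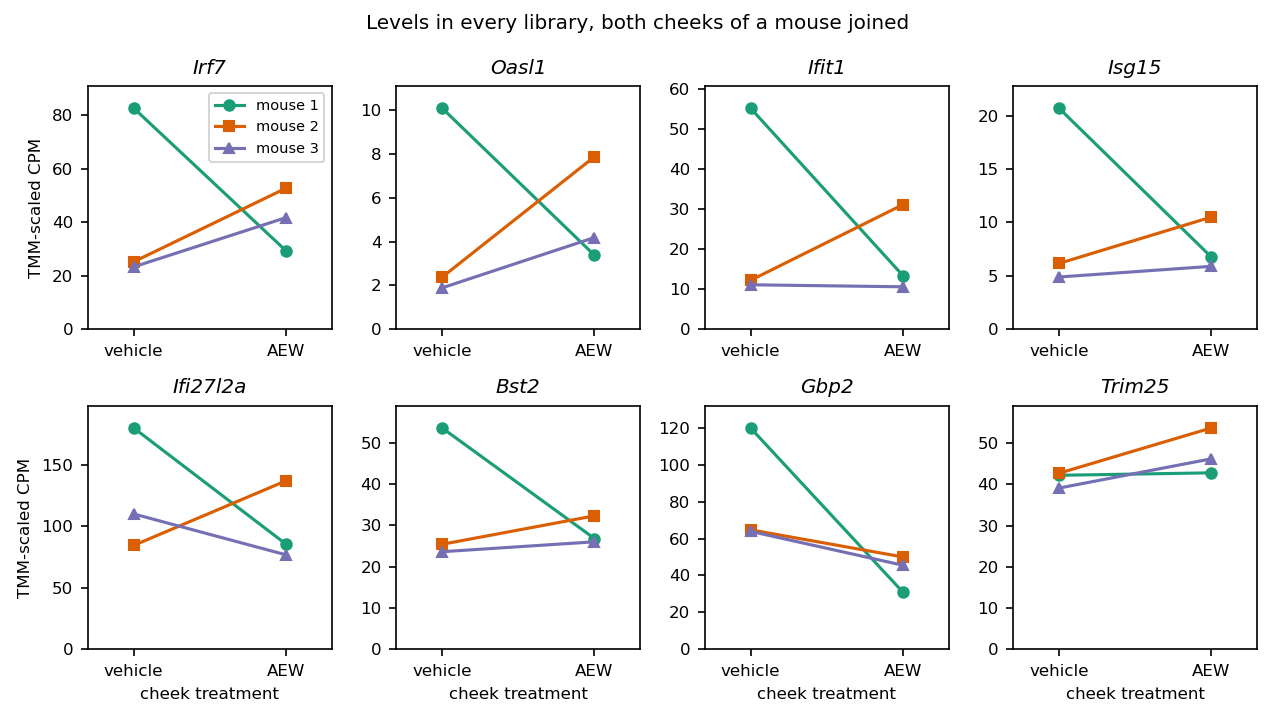
TMM-scaled CPM of 8 interferon-stimulated genes in every library, with the vehicle and AEW cheeks of a mouse joined by a line. In 7 panels the vehicle value of mouse 1 is the highest, at 82.6 CPM for Irf7 and 120 CPM for Gbp2, and Trim25 is flat in mouse 1.

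The guanylate-binding proteins, GTPases that attack the vacuoles of intracellular microbes, were represented by Gbp2 and Gbp3. Gbp2 (gene 14469) stood at 120, 64.7 and 63.9 CPM in vehicle skin and at 30.9, 50.0 and 45.5 CPM in AEW skin, so that the groups did not overlap. Its ratios were 0.257 (interval 0.235 to 0.282), 0.773 (0.709 to 0.842) and 0.712 (0.652 to 0.778) in the order of the mice. The means were 82.9 ± 32.3 and 42.1 ± 9.96 CPM (SD, n = 3 each). The log2 fold change was -0.98 ± 0.291 (SE) with an adjusted p of 0.072 in the edgeR test, 0.178 with the mouse as a block and 0.00658 in DESeq2. Gbp3 had ratios of 0.306, 1.19 and 0.722.

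The ISG15 system attaches a ubiquitin-like protein to others. Isg15 itself (gene 100038882) stood at 20.7, 6.16 and 4.89 CPM in vehicle skin and at 6.76, 10.5 and 5.89 CPM in AEW skin, with ratios of 0.327, 1.71 and 1.20. Usp18, the protease that removes the modifier and dampens signalling at Ifnar2, had ratios of 0.315, 1.47 and 0.728. Trim25 (gene 217069), a ubiquitin ligase that takes part in RNA sensing, was the exception of the whole list. It stood at 42.2, 42.7 and 39.1 CPM in vehicle skin and at 42.8, 53.7 and 46.2 CPM in AEW skin. Every AEW library lay above every vehicle library, by little in mouse 1, where the interval of the ratio (0.919 to 1.12) included 1. Its log2 fold change was 0.20 ± 0.105 (SE, adjusted p = 0.241).

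Among the sensors of foreign nucleic acid, Zbp1, which binds left-handed nucleic acid and can start cell death, had the lowest ratio of any member in mouse 1, at 0.229, and ratios of 2.07 and 1.39 in mice 2 and 3. Ifih1, a sensor of long viral RNA, had ratios of 0.529, 1.08 and 0.921. The partners Parp9 and Dtx3l, which form a complex that modifies proteins after DNA damage and interferon, were nearly alike, with ratios of 0.559, 1.14 and 0.820 for Parp9 and 0.609, 1.21 and 0.937 for Dtx3l.

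Ifi27l2a (gene 76933), a small mitochondrial protein gene, was the most abundant member per length, at a mean of 440 TPM over the 6 libraries. It stood at 180, 84.4 and 110 CPM in vehicle skin and at 85.4, 137 and 76.7 CPM in AEW skin. The ratio was 0.474, 1.62 and 0.700 in mice 1 to 3, and the log2 fold change was -0.32 ± 0.321 (SE, adjusted p = 0.532). Bst2 (gene 69550), the tetherin that holds budding viruses on the cell surface, followed at a mean of 67.3 TPM. Its levels were 53.6, 25.4 and 23.6 CPM in vehicle skin and 26.8, 32.3 and 26 CPM in AEW skin, and its log2 fold change was -0.27 ± 0.311 (SE, adjusted p = 0.59). Ifi35, at a mean of 43.8 TPM, stood at 48.9, 32.2 and 32.7 CPM in vehicle skin and at 26.9, 37.1 and 33.0 CPM in AEW skin, and its log2 fold change was -0.23 ± 0.195 (SE, adjusted p = 0.464). In all 3 genes the vehicle library of mouse 1 was the highest and the groups overlapped. Isg20, an exonuclease gene, and Rtp4, a chaperone of membrane receptors, had ratios of 0.540, 1.00 and 0.832 and of 0.327, 2.22 and 1.24. Rsad2, the viperin gene, whose product makes a chain-terminating nucleotide, had ratios of 0.273, 2.26 and 0.817, and its neighbour Cmpk2, a nucleotide kinase gene, had ratios of 0.536, 1.23 and 0.677. The remaining members, Ifi44 and Xaf1, had ratios of 0.290 and 0.365 in mouse 1, 1.34 and 1.14 in mouse 2, and 0.729 and 0.765 in mouse 3.

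Without mouse 1 the list looked different. In a fit of the 4 libraries of mice 2 and 3 with the mouse as a block, 9 of the 32 genes were higher in AEW skin and 1 was lower, against 12.6% and 10.5% of all tested genes called in each direction. The 9 were Irf7, Oas1a, Oas2, Oas3, Oasl1, Oasl2, Zbp1, Rtp4 and Trim25, and the lower gene was Gbp2. Of the OAS family 5 of 6 were thus called, and of the IFIT family 0 of 4. The log2 fold change was 0.95 ± 0.0912 (SE) for Irf7, with an adjusted p of 0.0011. It was 1.44 ± 0.283 for Oasl1 (adjusted p = 0.0147) and -0.43 ± 0.0788 for Gbp2 (adjusted p = 0.0118). The list's median was 0.24. The vehicle library of mouse 1 was singled out by its values for these same genes. The calls of this fit are thus not an independent test of them. This fit rests on 2 mice, and leaving out mouse 2 or mouse 3 in place of mouse 1 gave 0 calls in the list. Those fits called few genes of any kind. Of 15109 tested genes, 130 were higher and 302 lower without mouse 2, and 0 were called either way without mouse 3. Their 0 calls thus do not set the list apart. Leaving out the vehicle library of mouse 1 alone turned the list's median from -0.33 to 0.14 with 0 members called. That fit called 33 of the 15109 tested genes higher and 148 lower.

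**Figure D4:**
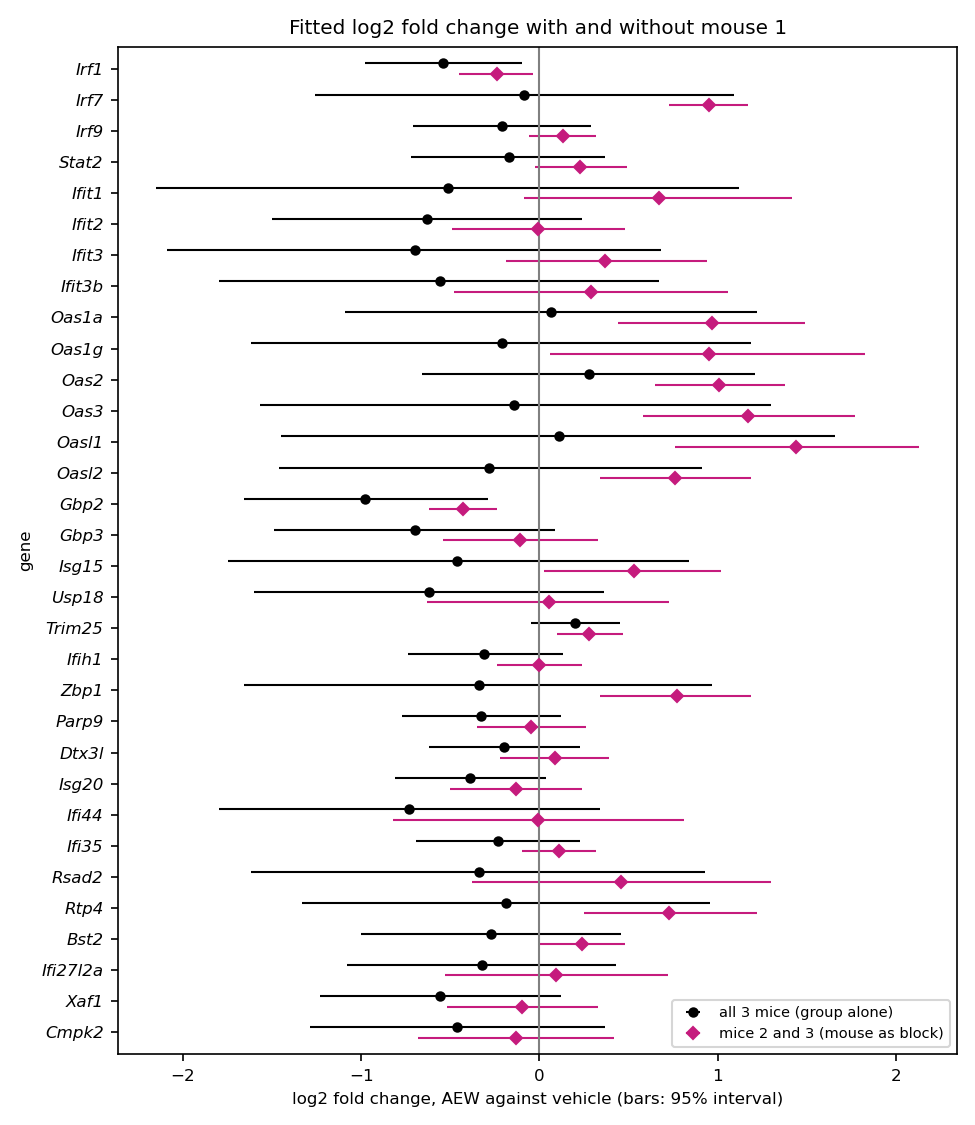
Log2 fold change of AEW against vehicle for each interferon-stimulated gene with its 95% interval, from the fit of all 3 mice with group alone (black) and from the fit of mice 2 and 3 with the mouse as a block (magenta). For Irf7 the estimate is -0.084 in the first and 0.95 in the second, and Gbp2 lies below 0 in both.

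In the wider pathway, counts of called genes are read against the 4.85% of all tested genes called higher and the 6.8% lower. For lists of up to 19 tested genes, 0 or 1 call is near those shares. Of the interferon genes, only Ifnb1, Ifnab, Ifnz, Ifnk and Ifng were analysed here, and their transcripts were scarce. Ifne, Ifnl2, Ifnl3 and the numbered Ifna genes were not analysed. Ifnb1, Ifnab and Ifnz had 0 estimated counts in every library, which allows a level of up to 0.149 to 0.167 CPM depending on the library. Ifnk, the interferon of keratinocytes, had 0 to 4 counts in a library, and so did Ifng. Of 6 receptor genes 0 were higher and 0 lower. Ifngr1, a receptor chain for interferon gamma, had ratios of 0.529, 0.871 and 0.804 and a log2 fold change of -0.46 (adjusted p = 0.0852). Its groups did not overlap, and DESeq2 called it lower (adjusted p = 0.0325). The log2 fold changes of Ifnar1, Ifnar2, Ifngr2, Ifnlr1 and Il10rb lay between -0.10 and 0.13.

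Of 14 genes of receptor signalling 1 was higher, the phosphatase gene Ptpn1 (log2 fold change 0.39, adjusted p = 0.0436, and adjusted p = 0.0746 with the mouse as a block). Over all tested genes 4.85% were called higher and 6.8% lower, so 1 of 14 is near the share. Among 4 other genes of ISG15 conjugation 0 passed the test, and their median ratios were 0.468, 1.20 and 1.08 in mice 1 to 3. The 2 with the smallest p were Trim21 and Ube2l6, with log2 fold changes of -0.33 and -0.32. Of 77 tested other interferon-induced genes 1 was higher and 0 lower, below the 4.85% and 6.8% of all tested genes. The gene called higher was Parp11 (log2 fold change 0.66, adjusted p = 0.0272), whose ratios of 1.59, 1.60 and 1.53 were nearly alike. The median ratios of these 77 genes were 0.558, 1.31 and 1.09, and 55 of them were highest in the vehicle library of mouse 1.

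Of 14 tested genes linked to interferon gamma, mostly GTPases, 1 was lower and 0 higher, a share near the 6.8% of all genes called lower. With the mouse as a block 0 were lower, and DESeq2 called 6 lower, against 10% of all genes. Their median ratios were 0.319, 1.09 and 0.621, with 11 of the 14 over 1 in mouse 2. The gene that fell was Tgtp1, a T cell-specific GTPase gene, at 9.18, 4.70 and 7.17 CPM in vehicle skin and 1.44, 2.31 and 3.05 CPM in AEW skin. Every AEW library lay below every vehicle library. Its log2 fold change was -1.63 (edgeR adjusted p = 0.0336, and adjusted p = 0.0848 with the mouse as a block). Tgtp1 has a near-identical copy, Tgtp2, so its value is uncertain.

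Macrophage and monocyte markers lay on the same side of 1 as the OAS genes in each mouse. All 11 had a ratio under 1 in mouse 1 and over 1 in mice 2 and 3, with medians of 0.495, 2.15 and 2.02. Their summed TPM was 2640, 1260 and 1040 in the vehicle skin of mice 1, 2 and 3 and 1180, 2700 and 2120 in AEW skin. The whole member list differed from them in mouse 3, where 17 of 32 were under 1. The vehicle library of mouse 1 was highest for 31 of 32 members but for 2 of the 11 markers. None of the 11 was at 0 in any library, and 0 passed the test over 3 mice, against 11 higher without mouse 1. The fit without mouse 1 called 12.6% of all tested genes higher. Langerhans and dendritic cell markers had median ratios of 0.531, 1.08 and 1.19 over 10 genes. Markers of plasmacytoid dendritic cells, known as strong producers of type I interferon, had median ratios of 0.677, 1.38 and 1.47 over 5 genes, with a summed TPM from 24.1 to 34.6 in vehicle and from 25.0 to 37.6 in AEW skin. Their defining marker Siglech did not share this order, at 3.99, 3.19 and 3.00 CPM in vehicle and 1.79, 2.99 and 1.86 CPM in AEW skin. T and NK cell markers summed to between 52.6 and 56.1 TPM in vehicle and between 34 and 43.5 TPM in AEW skin, and 1 of 8 tested was lower (Cd3g, log2 fold change -0.74, adjusted p = 0.0216, and adjusted p = 0.0508 with the mouse as a block), against 6.8% of all genes. Keratinocyte markers ran the other way in the vehicle group, with their lowest sum in mouse 1. The part of these cell types in the interferon-stimulated genes was not tested.

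**Figure D5:**
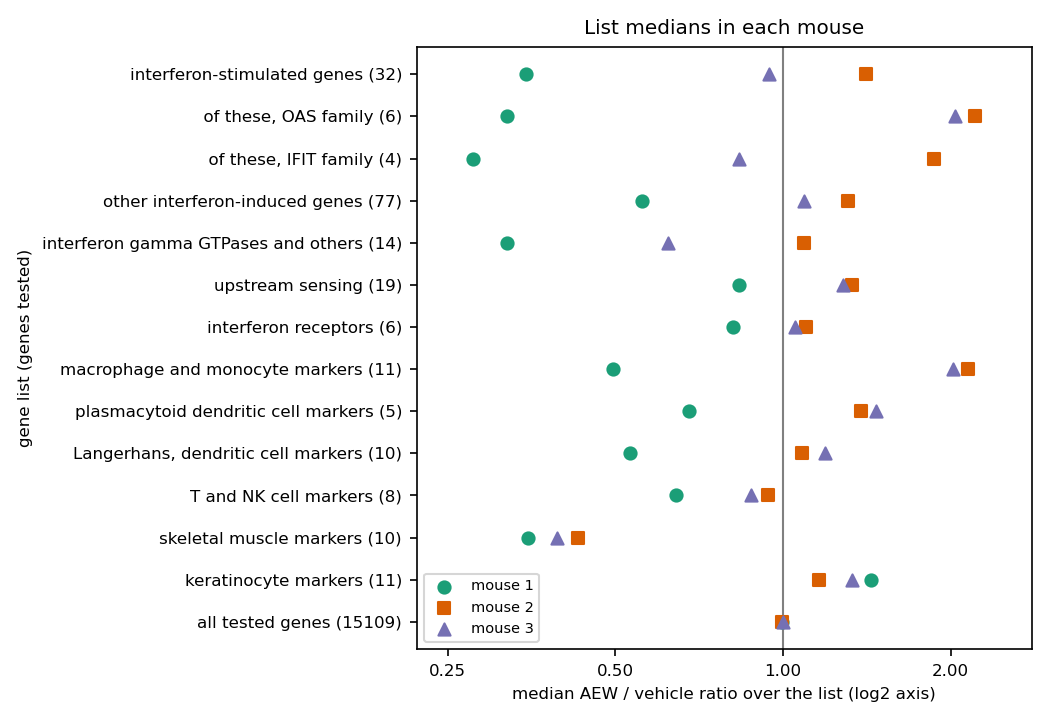
Median AEW to vehicle ratio on a log2 axis over each gene list, 1 point per mouse, with the number of tested genes in brackets. The medians of the OAS family (0.319, 2.21 and 2.04) and of the macrophage and monocyte markers (0.495, 2.15 and 2.02) lie on the same side of 1 in each mouse, and muscle markers lie under 1 in all 3 mice.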

How the data were processed

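RNA was measured in 6 cheek libraries, and the labels give both cheeks of an animal the same number, which pairs the libraries. Per the submitters' processing notes, HISAT and the GRCm39 build were used; the counting tool, annotation and strandedness are unknown here. The table the authors deposited holds estimated counts (fractional for 53.9% to 57.2% of genes), FPKM and TPM made by the authors, with their group means; FPKM values were not used. Counts were rounded and filtered with filterByExpr of edgeR 4.0.16 (minimum count 10), leaving 15109 genes that hold 99.94% or more of each library. They were scaled by TMM (factors 0.973 to 1.05) and tested with the quasi-likelihood test with group alone in R 4.3.3, with Benjamini-Hochberg adjustment at 0.05. Over all tested genes, the 2 libraries of a mouse deviated from their groups with correlations of -0.27, -0.124 and -0.176. Libraries of different mice gave -0.0727 to 0.187. Over the members the values were -0.275, -0.671 and 0.31 within mice 1 to 3 and -0.657 to 0.745 between mice. Intervals are at 95%. Replicate libraries differed beyond counting noise, the closest pair having a chi-square of 19.9 times its degrees of freedom. The AEW library of mouse 1 stood furthest from its group, at 72.4 and 60.4 times against the AEW libraries of mice 2 and 3. Those of mice 2 and 3 differed by 20.6 times, and the vehicle pairs by 19.9 to 27.7 times. On simulated counts for this comparison (14946 genes), the test recovered 21.2% of 1.5-fold, 71.6% of 2-fold and 97.0% of 4-fold changes. The simulation used the trend of spread over all genes and no mouse effect. Its shares do not apply to the members, whose median standard error was 0.384, against 0.147 over all tested genes. Alternatives were DESeq2 1.42.0, limma 3.58.1 on log2(TPM + 1) or log2(TPM + 0.1), other size factors, no filter, and left-out libraries or mice. Members and lists were chosen with earlier results of these data known. Every member is reported; values in every library are given for the 3 most abundant members, those with 1 direction in all mice, and, chosen after their values were seen, Irf7, Oasl1, Ifit1 and Isg15. From each further pathway list, called genes or the 2 smallest p are named; Ifngr1, Myd88, Siglech, Cd3g and S100a9 were also chosen after their values were seen.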

Additional observations from a re-analysis of the deposited data

How the results depend on the processing

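The counts of 0 higher and 0 lower members were unchanged with the replicate block by mouse, other size factors, no low-count filter and both limma fits. DESeq2 called 1 member lower. Over the fits that left out a library or a mouse, the count of higher members ran from 0 to 9 and that of lower members from 0 to 1, with all calls in the fit without mouse 1. That fit also called the most genes among all tested, 1909 higher and 1591 lower. The pairing by mouse ended the calls of Ptpn1, Tgtp1, Cd3g, S100a8 and S100a9 among the genes named, leaving 0 higher in receptor signalling and 0 lower among the interferon gamma genes, and ended or made no call among the members. With the replicate block Irf7 and Oas3 took positive log2 fold changes of 0.16 and 0.20. On log2(TPM + 1) the values were 0.19 for Irf7, 0.077 for Oas3 and 0.035 for Rtp4, and on log2(TPM + 0.1) they were 0.20 for Irf7, 0.20 for Oas3, 0.039 for Rtp4 and 0.00086 for Oas1g. The signs of 22 members turned in at least 1 fit that left out a library or mouse, 15 of them without the vehicle library of mouse 1. With 1 library left out, the log2 fold changes ran from -0.39 to 0.77 for Irf7, -0.35 to 0.07 for Stat2, -1.13 to 0.66 for Ifit1, -1.11 to 0.30 for Ifit3 and -0.90 to 0.27 for Ifit3b. They ran from -0.35 to 0.74 for Oas1a, -0.57 to 0.62 for Oas1g, -0.50 to 0.92 for Oas3, -0.34 to 1.27 for Oasl1 and -0.61 to 0.55 for Oasl2. The ranges were -0.80 to 0.48 for Isg15, -0.75 to 0.50 for Zbp1, -0.97 to 0.32 for Rsad2, -0.55 to 0.55 for Rtp4, -0.48 to 0.21 for Bst2, -0.62 to 0.038 for Ifi27l2a and -0.69 to 0.016 for Cmpk2. With 1 mouse left out and the replicate block, they ran from -0.34 to 0.95 for Irf7, -0.44 to 0.13 for Irf9, -0.45 to 0.23 for Stat2, -1.09 to 0.67 for Ifit1, -1.14 to 0.37 for Ifit3, -1.03 to 0.29 for Ifit3b and -0.46 to 0.97 for Oas1a. For the other OAS genes they ran from -0.61 to 0.95 (Oas1g), -0.11 to 1.01 (Oas2), -0.37 to 1.17 (Oas3), -0.26 to 1.44 (Oasl1) and -0.67 to 0.76 (Oasl2). They were -0.70 to 0.53 for Isg15, -1.07 to 0.053 for Usp18, -0.83 to 0.77 for Zbp1, -0.41 to 0.088 for Dtx3l, -0.43 to 0.11 for Ifi35, -1.09 to 0.46 for Rsad2, -0.66 to 0.73 for Rtp4, -0.44 to 0.24 for Bst2 and -0.80 to 0.094 for Ifi27l2a. With only mouse 3 left out, Oas1a and Oas2 stood at -0.071 and -0.039. The cause of these turns was not tested. Gbp2, Irf1 and Trim25 kept their sign in every fit run, and so did Ifit2, Gbp3, Ifih1, Parp9, Isg20, Ifi44 and Xaf1. For Ifit2, Ifih1 and Ifi44 the values without mouse 1 were -0.0063, -0.0013 and -0.0079. The intervals of ratios within a mouse cover counting error only.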

Other observations

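Of 19 tested genes of the sensing steps upstream of interferon, 1 was higher over 3 mice, near the 4.85% of all genes: the adaptor gene Traf3 (25.0, 26.7 and 26.1 CPM in vehicle and 35.8, 36.6 and 35.5 CPM in AEW skin, log2 fold change 0.47, edgeR adjusted p = 0.017, and adjusted p = 0.0473 with the mouse as a block). The median ratios were 0.834, 1.33 and 1.28 in mice 1 to 3, and 11 of the 19 were higher without mouse 1, against 12.6% of all tested genes. Myd88, the adaptor of most Toll-like receptors, had ratios of 1.11, 1.48 and 1.56, with an adjusted p of 0.0555 over 3 mice.

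Of 10 neutrophil markers, 4 passed the filter on low counts, which genes that are high in AEW skin alone can pass. S100a8, S100a9 and Cxcr2 were called higher over 3 mice and Cxcr2 with the mouse as a block, and Csf3r had a ratio of 0.618 in mouse 1. Over all genes 4.85% were called higher. S100a9, an alarm protein gene that stressed keratinocytes also make, stood at 1.42, 1.84 and 0.723 CPM in vehicle and 3.28, 30.0 and 14.8 CPM in AEW skin. The AEW library of mouse 1 was the lowest of the 3 AEW libraries for S100a9, as it was for Irf7 and Oasl1. For other members, among them Ifit1, Isg15 and Ifi27l2a, the AEW library of mouse 3 was the lowest of the 3. Haemoglobin and Alas2 transcripts had median ratios of 0.282, 0.828 and 0.962, and all 5 were highest in the vehicle library of mouse 1.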
